A study of Mus musculus with 12 samples.

Results

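Sγ2a is the switch (S) region upstream of the exons for the γ2a heavy chain, which encode the constant part of IgG2a, and it is read here through the junctions that join it to the 5′ end of Sμ. Members were all junctions whose prey lay on chromosome 12 from 114521001 to 114536000, a 15-kb region in the coordinates of the AJ851868/mm9 hybrid genome, in the 6 libraries made after stimulation with LPS/αIgD-dextran. They numbered 3698, of 30728 junctions in these 6 libraries and 53012 in all 12 libraries of the series. WT libraries held 3429 of them and 3CBEsD libraries 269. The libraries came from CSR-HTGTS-seq, in which genomic DNA is amplified from a primer at 5′Sμ, the bait, so that each read runs from Sμ into whatever DNA the broken end was joined to, the prey. The cells were splenic B cells stimulated for 96 h, with 3 libraries for each genotype. WT cells carried an unmodified IgH locus, and 3CBEsD cells lacked all of the CTCF-binding elements (the 3′IgH CBEs) at the downstream end of the locus on both alleles. Per the study's methods, the cells of both genotypes were AID-proficient and were CD43-negative splenocytes of chimeric mice, whose mature lymphocytes came from injected 129/Sv embryonic stem cells of the TC1 line. The 3CBEsD cells thus descended from targeted ES cell clones. LPS, from the outer membrane of bacteria, activates B cells through a Toll-like receptor, and αIgD-dextran is an antibody to IgD coupled to dextran that triggers the antigen receptor. Junction lists carry no expression values, so the cell type label could not be set against marker genes.

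Class switch recombination (CSR) replaces Cμ with a downstream constant region. Transcription through an S region exposes it to AID, a cytidine deaminase that acts most readily on cytosines in short motifs such as AGCT, and the resulting lesions become double-strand breaks. A broken Sμ end that joins to the downstream end of a break in an acceptor S region deletes the DNA between them, and a join to the upstream end inverts it. The ends are ligated directly, after addition of bases, or across a few bases that both ends share, called microhomology. S regions are repetitive and rich in G on the coding strand. IgH lies on the minus strand, so that higher coordinates are upstream (5′) and transcription runs towards lower ones.

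The sequence that carries most of the junctions is printed here because the positions, motifs and microhomologies described further on all refer to it. No genome of the hybrid build was used. Its letters were rebuilt from read bases that the aligner had marked as matches or had filled from the reference, which gave an unbroken stretch of 7383 bases, chr12:114526932-114534314, that held 3691 of the 3698 junctions. No position in it was matched by different letters in different reads. Matched bases equal the reference by definition, so this agreement is no independent check of the letters. All sequences are given 5′ to 3′ on the coding (minus) strand. The 200 bases with the most distinct joints, chr12:114531687-114531886, held 312 joints, 8.65% of the 3607 joints left when each combination of prey position, orientation and bait end was counted once per library. WT libraries placed 8.63% of their joints in it and 3CBEsD libraries 8.88%. Capitals mark its 6 copies of AGCT.
Densest 200 bases of Sγ2a: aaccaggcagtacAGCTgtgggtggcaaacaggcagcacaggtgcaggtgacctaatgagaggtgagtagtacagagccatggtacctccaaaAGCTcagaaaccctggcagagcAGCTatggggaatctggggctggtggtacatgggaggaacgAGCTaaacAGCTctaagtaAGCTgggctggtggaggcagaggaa
Letters of the stretch tended to recur at a spacing of about 26 bases. Shifted against itself by 26 bases, 37.5% of its letters were identical, and by 52 bases 36.7%, against a median of 26.6% over the shifts tested. The length of a repeated unit was not determined. The 5 prey positions used by the most joints are shown next, with 20 bases on each side and the first prey base in capitals.
Position 114531071: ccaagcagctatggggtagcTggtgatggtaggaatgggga
Position 114531698: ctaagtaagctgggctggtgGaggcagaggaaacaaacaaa
Position 114531709: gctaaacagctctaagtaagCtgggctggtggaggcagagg
Position 114531782: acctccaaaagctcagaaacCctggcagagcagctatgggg
Position 114532129: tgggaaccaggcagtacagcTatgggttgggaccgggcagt
Position 114531071 was used by 10 joints with 7 different bait ends, all deletional and all from the 3 WT libraries, and its first prey base was the last T of an AGCT. Position 114532129, used by 9 joints of which 1 was from a 3CBEsD library, was also the last T of an AGCT. Position 114531709, with 9 WT joints, was the C of an AGCT. Positions 114531698 and 114531782, with 9 joints each, lay outside AGCT. Use was spread thinly: the 3607 joints fell on 2153 positions, 1273 of them used once. The other partner of every joint was the 5′Sμ bait, shown over the 101 bases from the primer to the lower quartile of the bait ends, chr12:114669158-114669258, with the 5 most used last bait bases in capitals.
5′Sμ bait: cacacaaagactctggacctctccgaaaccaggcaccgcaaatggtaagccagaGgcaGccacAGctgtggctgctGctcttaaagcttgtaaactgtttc
These 5 ends were shared by 547 of the 3607 joints, or 15.2%. The bait letters were rebuilt in the same way. At 7 of the 101 positions more than 1 letter was matched, with the printed letter in at least 99.99% of cases. The printed start holds 1 more a than the 5′Sμ primer that the study lists.

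The mm9 genome, which is of another mouse strain, places the same sequence at the gene named Ighg2c. The rebuilt stretch matched mm9 chr12:114526422-114532969 with 93.7% identity over 6568 aligned columns. Through this alignment, 3585 of the 3698 junctions (96.9%) lay upstream of the Ighg2c gene model, 5 in its exons and 4 in its introns, and 104 had no aligned mm9 base. The first base of that gene model aligned to hybrid position 114527631, which is 4097 bases downstream of the median junction.

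Depth differed between the libraries. The 300-kb window of chromosome 12 from 114400001 to 114700000 held 3933, 4940 and 6097 junctions in WT libraries 1 to 3 and 2087, 2836 and 2958 in 3CBEsD libraries 1 to 3. WT libraries 2 and 3 had 214 Sγ2a joints in common, identical in prey position, orientation and bait end, which were 19.3% of the joints of library 2 and 15.8% of those of library 3. The other 14 pairs of libraries shared between 0 and 19 joints, at most 4.29% of a library. Results are therefore also given without joints found in over 1 library. Labels do not say whether libraries of a genotype came from separate animals. Whether WT libraries 2 and 3 are independent of each other is not known, and leaving out shared joints does not make them so. Each was counted as a full library in every SD and test, so that p-values refer to these libraries and not to animals. Each genotype difference was tested by exact permutation of the library labels, two-sided, where 3 libraries against 3 can give no p below 0.1. It was called only if no library of one genotype fell within the range of the other.

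Sγ2a took 23.0%, 23.1% and 22.7% of the window junctions in WT libraries 1 to 3 and 3.402%, 3.60% and 3.25% in 3CBEsD libraries 1 to 3. All WT libraries lay far above all 3CBEsD libraries. Means were 22.9% ± 0.170 (SD, n = 3) and 3.41% ± 0.176, so that the deleted cells held 14.9% of the WT share (p = 0.1, exact permutation test). Wilson 95% intervals of the single libraries, which cover counting error only, ran from 21.7% to 24.3% in WT library 1 and from 2.71% to 4.27% in 3CBEsD library 1. Without joints found in over 1 library the ratio was 15.2%. Junctions within Sμ numbered 1564, 2026 and 2461 in WT libraries 1 to 3 and 1421, 1937 and 2032 in 3CBEsD libraries. They thus filled a larger part of the window in deleted cells. With these left out of the denominator, the deleted cells held 28.1% of the WT share. Both read-name sequencing runs that held these libraries gave nearly the same ratio, 14.8% with 1 library per genotype and 14.9% with 2.

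The loss of Sγ2a junctions was larger than that of the neighbouring upstream S regions in the same libraries. WT libraries 1 to 3 held 1.05, 1.09 and 1.08 Sγ2a junctions per junction in Sγ2b, the acceptor region just upstream, and 3CBEsD libraries 0.209, 0.216 and 0.200. The libraries of the genotypes were far apart, with means of 1.07 ± 0.0213 (SD, n = 3) and 0.208 ± 0.00831, so that the ratio in deleted cells was 19.4% of that in WT (p = 0.1, exact permutation test). Against Sγ3, the most upstream γ switch region, WT libraries held 1.59, 1.67 and 1.58 Sγ2a junctions per Sγ3 junction and 3CBEsD libraries 0.403, 0.470 and 0.381. Here too the libraries did not overlap, and the deleted ratio was 25.9% of the WT ratio (p = 0.1, exact permutation test). Without joints found in over 1 library these values were 19.3% and 26.3%. Both are ratios of junction numbers within a library and do not depend on the junctions in Sμ.

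**Figure D1:**
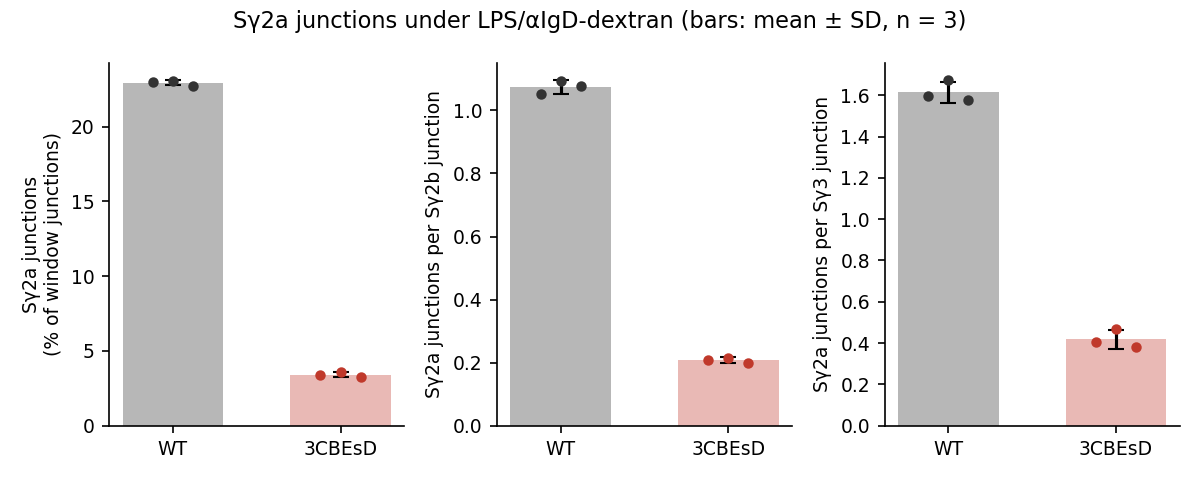
Sγ2a junctions in each LPS/αIgD-dextran library (points) with the mean and SD of 3 libraries per genotype (bars), as a percentage of the window junctions (left), per Sγ2b junction (middle) and per Sγ3 junction (right). In all 3 panels the 3CBEsD points lie below the WT points, with means of 22.9% and 3.41% in the left panel.

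With the other stimulation, αCD40/IL4, which directs switching to other regions, Sγ2a was close to unused. WT libraries held between 3 and 5 junctions each and 3CBEsD libraries between 1 and 3, or 0.112% ± 0.0328 (SD, n = 3) and 0.110% ± 0.110 of the window junctions. Most of these counts are at or under 3 junctions, the limit taken for a count of 0. The genotype difference was -19.5 percentage points with LPS/αIgD-dextran and -0.00193 with αCD40/IL4. An exact permutation test of the difference between them over 400 relabellings gave p = 0.055. Because Sγ2a was close to unused with αCD40/IL4, the difference there could only be near 0. The test therefore cannot show whether the stimulation changes the effect of the deletion. All further values are of the LPS/αIgD-dextran libraries.

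Junctions clustered in the upstream part of the region. The 5 1-kb bins from 114529001 to 114534000 held 97.2% of the 3698 junctions, and 7 of the 15 bins held at least 10 junctions. The 3 most used bins were the same in both genotypes. Bin 114532001 to 114533000 took 31.5%, 31.5% and 30.2% of the Sγ2a junctions of WT libraries 1 to 3 and 43.7%, 34.3% and 30.2% of those of the 3CBEsD libraries. Bin 114531001 to 114532000 took 30.1%, 29.8% and 28.9% in WT and 28.2%, 28.4% and 32.3% in 3CBEsD. In both bins the libraries of the genotypes overlapped (p = 0.3 and 1, exact permutation test). Next came bin 114530001 to 114531000, with 18.7% ± 0.254 (SD, n = 3) in WT and 15.0% ± 5.38 in 3CBEsD, which overlapped as well (p = 0.4, exact permutation test).

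The genotypes separated at the edges of the cluster. At its upstream edge, bin 114533001 to 114534000 took 8.63%, 9.04% and 8.37% of Sγ2a junctions in WT libraries and 11.3%, 10.8% and 14.6% in 3CBEsD libraries. Every deleted library was above every WT library (p = 0.1, exact permutation test). Downstream, bin 114529001 to 114530000 took 8.96%, 7.90% and 10.6% in WT and 5.63%, 2.94% and 4.17% in 3CBEsD, with every deleted library below (p = 0.1, exact permutation test). Further downstream, bin 114528001 to 114529000 held 14, 28 and 31 junctions in WT and 0 in each 3CBEsD library. Of the 269 junctions of deleted cells, a count of 0 allows a share of up to 1.12%, against 2.13% in the pooled WT libraries. As a share of window junctions this bin was at least 12.8-fold lower in deleted cells, with 3 junctions over the group as the floor. These 3 were the bins of 7 in which the libraries of the genotypes did not overlap. In 1-kb bins of Sγ3, Sγ2b, Sγ2a and Sμ, each taken as a share of its own region, 54.3% did not overlap, so that such differences in profile were at least as frequent in the other regions. Without 3CBEsD library 3, 6 of the bins did not overlap.

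As a share of window junctions, Sμ included, all 7 bins were lower in every deleted library than in every WT library. The same held for 41.3% of the 1-kb bins in the window. In the group means, the depth of the loss was graded along the region. From upstream to downstream, the 5 bins from 114533001 down to 114529001 kept 20.8%, 17.3%, 14.9%, 12.02% and 6.88% of their WT share. Each step downstream was thus lower than the one before it in these means. Set against the WT means, no single deleted library fell at every step. Deleted libraries 1 to 3 held 8, 11 and 14 junctions in the first of these bins and 4, 3 and 4 in the last. The outermost tested bin, 114527001 to 114528000, held 16 WT and 3 deleted junctions.

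**Figure D2:**
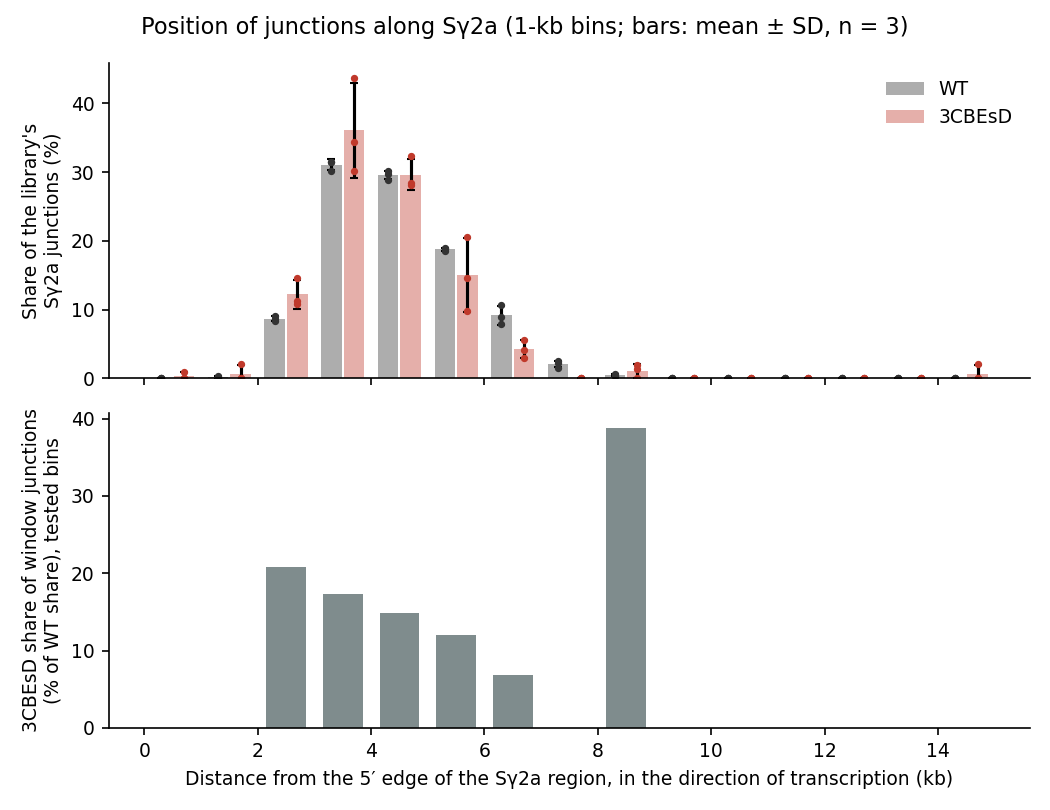
Upper panel, share of each library's Sγ2a junctions in 1-kb bins by distance from the region's 5′ edge in kb (points, libraries; bars, mean ± SD, n = 3 per genotype). Lower panel, 3CBEsD mean share of window junctions as a percentage of the WT mean in the 7 tested bins, which falls from 20.8% to 6.88% over 5 neighbouring bins; the next bin has no bar because deleted libraries held 0 junctions there, and the last bar rests on 3 deleted junctions.

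The same shift appeared in the median position. It was 114531746, 114531734 and 114531692 in WT libraries 1 to 3 and 114532129, 114531951 and 114531977 in 3CBEsD libraries. Every deleted median was upstream of every WT median, by 295 bases on average (p = 0.1, exact permutation test), and by 331 bases without joints found in over 1 library. Within the sequencing runs the difference was 382 bases with 1 library per genotype and 252 with 2. The middle 50% of junctions spanned 1583 ± 34.0 bases (SD, n = 3) in WT and 1392 ± 58.6 in 3CBEsD, again without overlap (p = 0.1, exact permutation test). The difference of -191 bases became -513 bases when preys were at least 100 bases long. An upstream shift was also present in the other γ regions. Median positions moved upstream in deleted libraries by 48.7 bases in Sγ2b and by 203 in Sγ3, both without overlap of the libraries (p = 0.1, exact permutation test). The distance between the Sγ2a and Sγ2b medians within a library changed by 246 bases with no overlap (p = 0.1), and that between the Sγ2a and Sγ3 medians by 92.2 bases with overlap (p = 0.2, exact permutation tests). The Sγ2a shift was therefore larger than that of Sγ2b, and its difference from that of Sγ3 was within the spread between libraries.

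Most Sγ2a junctions were deletional. Inversional junctions made up 7.85%, 10.1% and 7.36% in WT libraries 1 to 3, from 71, 115 and 102 junctions. They made up 15.5%, 10.8% and 6.25% in 3CBEsD libraries, from 11, 11 and 6 junctions. The genotypes overlapped, with means of 8.44% ± 1.46 (SD, n = 3) and 10.8% ± 4.62 (p = 0.6, exact permutation test), and the Wilson 95% interval of 3CBEsD library 1 alone ran from 8.88% to 25.7%. Whether a difference of this size could be detected at the depth of the deleted libraries was not tested.

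Inversional junctions lay further upstream than deletional ones in WT. Their medians differed by 286, 321 and 236 bases in WT libraries 1 to 3, and by -155, 356 and 196.5 in 3CBEsD libraries, where the inversional median rests on 11 junctions or fewer. A sign-flip test over the 6 libraries, whose smallest p is 0.03125, gave p = 0.0625 (exact). In pooled WT libraries, inversional junctions rose along the bins from 4.40% of 318 junctions in 114529001 to 114530000 through 6.06%, 8.31% and 8.95% to 16.2% of 297 junctions in 114533001 to 114534000. In pooled 3CBEsD libraries the same bins had 9.09%, 2.38%, 11.25%, 14.7% and 6.06%, with no steady rise and with 11 and 33 junctions in the outer bins. WT libraries 1 and 2 rose at each of these steps. WT library 3 went from 28 of 400 junctions to 29 of 418 at one step, a slightly lower share, and otherwise rose. Sγ3 showed a like offset in all 6 libraries, 643 bases on average (p = 0.03125, exact sign-flip test), and Sγ2b had values from -79.5 to 558 bases of mixed sign (p = 0.78125, exact).

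**Figure D3:**
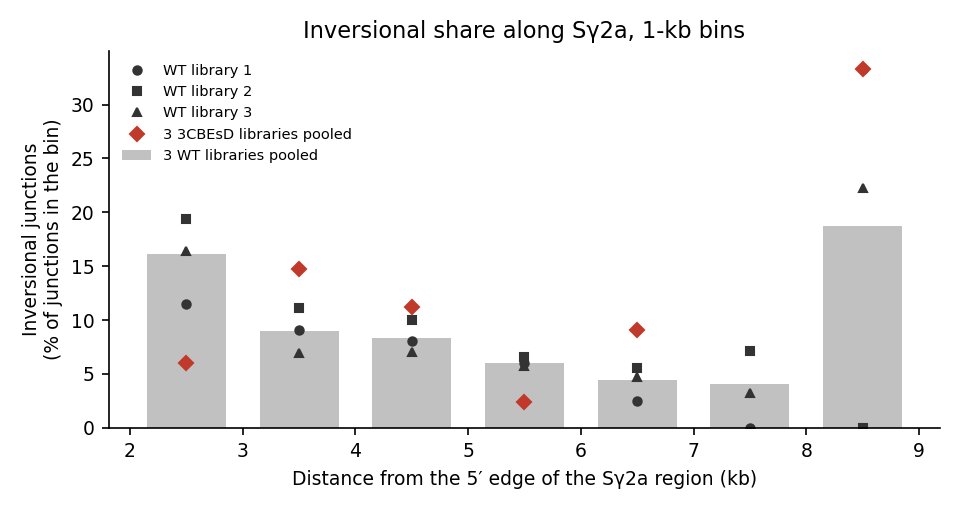
Percentage of the junctions in each tested 1-kb bin of Sγ2a that were inversional, by distance in kb from the region's 5′ edge: pooled WT libraries (bars), single WT libraries (black symbols) and pooled 3CBEsD libraries (red diamonds). Pooled WT values fall from 16.2% to 4.40% over the first 5 bins, and the last bin holds 16 WT and 3 deleted junctions.

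Microhomology was the leading joint structure in both genotypes. It was taken as the number of read bases that both the bait and the prey alignment covered. Such bases were present at 59.2%, 55.1% and 57.8% of Sγ2a junctions in WT libraries 1 to 3 and at 56.3%, 56.9% and 56.2% in 3CBEsD libraries. The genotypes overlapped, with means of 57.4% ± 2.06 (SD, n = 3) and 56.5% ± 0.331 (p = 0.6, exact permutation test). One shared base was the most frequent length, at 22.9% ± 1.30 of junctions in WT and 23.5% ± 3.46 in 3CBEsD. Microhomology of 2 bases followed, at 16.1% ± 1.61 and 15.8% ± 5.29, and of 3 bases at 7.66% ± 0.797 and 6.56% ± 1.98. Mean length was 2.45, 2.52 and 2.44 bases in WT libraries and 2.78, 1.97 and 2.24 in 3CBEsD libraries, which overlapped (p = 0.7, exact permutation test). Some overlaps held a base that mismatched the reference in one of the alignments. These were 116 of the 2116 overlaps in all and 87 of the 154 of 6 bases or more. Without them microhomology was present at 56.5%, 51.6% and 54.4% of junctions in WT and 52.1%, 56.9% and 54.2% in 3CBEsD. The share of overlaps that would arise by chance was not tested, so these values do not give the share of joints made through shared bases.

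Insertions were more frequent and direct joints less frequent in the deleted libraries, by margins that several settings removed. Bases that belonged to neither alignment were present at 16.7%, 20.8% and 19.3% of junctions in WT libraries 1 to 3 and 23.9%, 28.4% and 20.8% in 3CBEsD libraries. WT library 2 and 3CBEsD library 3 were separated by a margin of less than 0.1 percentage points. Means were 18.9% ± 2.07 (SD, n = 3) and 24.4% ± 3.82 (p = 0.1, exact permutation test). Direct joints were 24.1%, 24.1% and 22.9% in WT and 19.7%, 14.7% and 22.9% in 3CBEsD, with means of 23.7% ± 0.660 and 19.1% ± 4.14 and an equally narrow gap between the genotypes (p = 0.1, exact permutation test). Without joints found in over 1 library both measures overlapped between the genotypes (p = 0.3 for each, exact permutation test). Neighbouring regions moved in part the same way. Mean insertion shares in WT and 3CBEsD were 20.7% and 25.3% in Sγ3 and 18.2% and 20.3% in Sγ2b. Direct joints were 23.0% and 19.5% in Sγ3 but 24.4% and 24.5% in Sγ2b. Insertions of 1 base were the most frequent, at 8.15% ± 0.353 of junctions in WT and 10.2% ± 1.67 in 3CBEsD, and those of 10 bases or more were 1.35% ± 0.460 and 2.76% ± 1.27. The longest was 29 bases.

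**Figure D4:**
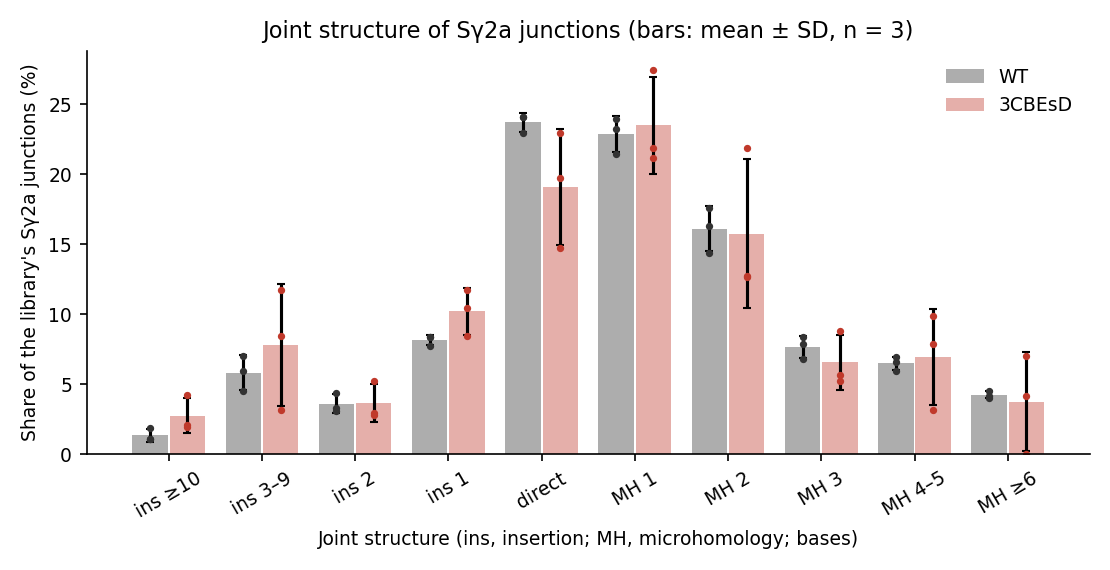
Share of each library's Sγ2a junctions (percent; points, libraries; bars, mean ± SD, n = 3 per genotype) by joint structure, from insertions of 10 or more bases through direct joints to microhomology of 6 or more bases. Direct joints stand at 23.7% in WT and 19.1% in 3CBEsD, and 1-base microhomology at 22.9% and 23.5%.

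Shared and inserted bases differed in composition. Counted once per library in the direction of the read, 1-base microhomologies were G in 38.2%, A in 26.5%, C in 18.5% and T in 16.8% of 829 joints. Single inserted bases were A in 115, T in 114, G in 39 and C in 32 of 300 joints. Among 2-base microhomologies AG was the most frequent, at 116 joints, and GC followed with 82.

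Some of the longer microhomologies used strings that the Sγ2a sequence holds in many copies. Counting matched bases only, 66 joints had 6 bases or more, with 31 different strings, and 18 of these joints (27.3%) contained aggcag. The 6 most frequent strings were aggcag (11 joints), acagctgtg (6), gaggcag (6), acagct (4), accaggca (4) and acagctgtgg (3). Each occurs once in the bait and can be read in the bait sequence above. On the coding strand of the rebuilt sequence aggcag occurs 60 times in Sγ2a, 12 times in Sγ2b and 9 times in Sγ3. The 9-base string acagctgtg occurs 21 times in Sγ2a, 1 time in Sγ2b and 0 times in Sγ3, and the 8-base string accaggca 29, 2 and 1 times. The 10-base string acagctgtgg occurs 14 times in Sγ2a and 0 times in the other γ regions. Joints with 6 or more shared bases, all matched, were 2.32%, 1.58% and 1.66% of Sγ2a junctions in WT libraries and 2.82%, 0% and 3.13% in 3CBEsD libraries, where 0 of 102 junctions were of this kind in library 2. In Sγ2b the means were 1.29% ± 0.595 (SD, n = 3) in WT and 1.64% ± 0.551 in 3CBEsD, and in Sγ3 1.16% ± 0.444 and 1.84% ± 0.140. The Sγ2a values overlapped those of both other regions, and whether the strings were used in proportion to their copies was not tested.

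Joint structure was compared between Sγ2a and its neighbours within each library, for 4 measures against each of 2 regions. Direct joints were less frequent in Sγ2a than in Sγ2b in 6 of 6 libraries, by -3.05 percentage points on average (p = 0.03125, exact sign-flip test; adjusted p = 0.125 over the 8 comparisons). Inversional junctions were less frequent in Sγ2a than in Sγ3 in 6 of 6 libraries, by -4.70 percentage points (p = 0.03125, exact sign-flip test; adjusted p = 0.125), with Sγ3 means of 13.04% ± 0.180 (SD, n = 3) in WT and 15.6% ± 1.99 in 3CBEsD. Neither passed the correction at 0.05. The other 6 comparisons were of mixed sign over the libraries. Microhomology differed by 0.638 percentage points from Sγ2b and by 1.11 from Sγ3, with library values from -2.25 to 3.24 and from -2.75 to 3.47.

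On the Sμ side, median bait length was alike in both genotypes to within a few bases. It was 74, 72 and 76 bases in WT libraries 1 to 3 and 76, 77.5 and 74.5 in 3CBEsD libraries, which overlapped (p = 0.3, exact permutation test). With preys of at least 100 bases the means were 67.3 in WT and 65.2 in 3CBEsD. The difference thus turned to -2.17 bases, also with overlap (p = 0.2, exact permutation test). Bait alignments began at slightly different bases in different libraries, between 114669258 and 114669260. Medians for Sγ2b were 72.3 ± 1.15 bases (SD, n = 3) in WT and 73.7 ± 2.52 in 3CBEsD, and for Sγ3 76.7 ± 0.577 and 74.5 ± 4.09. The most used bait end, 114669194, lies at the G of the AGCT capitalised in the bait sequence and took 3.86% of the distinct Sγ2a joints in WT and 4.46% in 3CBEsD, against 3.65% of Sγ2b and 3.23% of Sγ3 joints. Among the 830 direct joints, whose last bait base is not blurred by shared bases, the A before it, 114669195, was the most used with 31 joints. Where the breaks themselves lay was not measured.

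Within Sγ2a more joints began at the last base of AGCT than at the bases around it, though most joints lay outside AGCT. This palindrome is a preferred AID target with a cytosine for deamination on each strand. Counted in the direction of the read, so that deletional and inversional joints are placed alike, 210 WT junctions began at the last T of an AGCT, while the other 23 positions, in the motif or within 10 bases on either side, held between 64 and 138. In deleted cells 21 junctions began there and between 2 and 14 at each other position. Per library, the last T held 59, 70 and 81 junctions in WT and 5, 9 and 7 in 3CBEsD, against means of 24.2, 32.0 and 37.5 and of 2.3, 2.3 and 2.5 per flanking base. All 6 libraries were above their flanks, 2.55-fold on average (p = 0.03125, exact sign-flip test on log ratios). This pattern was noticed in these data before it was tested on them. Ratios were 2.26 ± 0.154 (SD, n = 3) in WT and 2.96 ± 0.881 in 3CBEsD and overlapped (p = 0.3, exact permutation test).

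**Figure D5:**
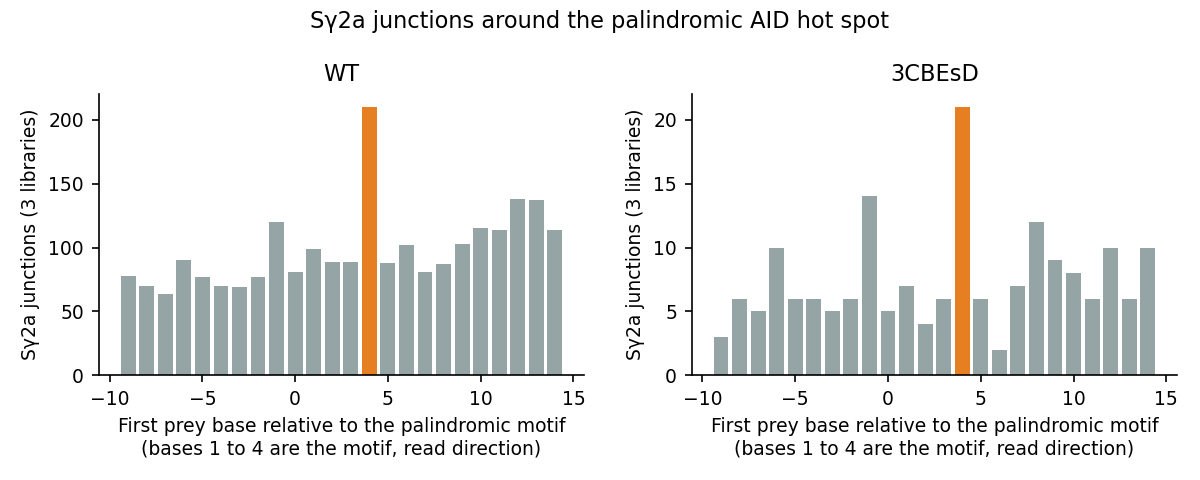
Sγ2a junctions of 3 WT libraries (left) and 3 3CBEsD libraries (right) by the position of the first prey base relative to the palindromic 4-base motif, whose bases are numbered 1 to 4 in the direction of the read. The orange bar, base 4, holds 210 junctions in WT and 21 in 3CBEsD, above the other 23 positions in each panel.

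In WT, the excess was at the same base in both orientations and in joints without shared bases. Over the WT libraries, 187 deletional junctions began at the last T against 85.3 per flanking base, and 23 inversional junctions against 8.40. Direct joints of WT libraries gave 52 against 20.9, a ratio of 2.48 from pooled counts. Deleted libraries held few junctions for such a split. Their deletional junctions numbered 2, 8 and 6 at the last T against 2.05, 1.85 and 2.3 per flanking base, so that library 1 showed no excess. Their inversional junctions there numbered 3, 1 and 1. Sγ2b and Sγ3 showed it as well, with mean ratios of 2.19 ± 0.110 (SD, n = 3) and 2.44 ± 0.323 in WT and 2.75 ± 0.163 and 3.28 ± 0.580 in 3CBEsD. The Sγ2a ratio did not differ from that of Sγ2b or Sγ3 beyond the spread over libraries (p = 0.625 and 0.53125, exact sign-flip tests).

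Junctions were also set against a wider AID motif, as a description. DGYW/WRCH, where D is any base but C, H any but G, W is A or T, Y is C or T and R is A or G, was searched on both strands with overlaps allowed. Only junctions in the rebuilt stretch were counted. First prey bases lay in the motif at 52.0%, 49.3% and 49.0% of them in WT libraries 1 to 3 and 46.5%, 59.4% and 51.1% in 3CBEsD libraries, which overlapped (p = 0.8, exact permutation test). The motif covered 40.2% of the rebuilt stretch, and 47.0% when each 100-base bin was weighted by its junctions. All 6 libraries were above the former value, and 5 of 6 were above the latter, with 3CBEsD library 1 below it. AGCT held 14.4% ± 1.09 (SD, n = 3) of junctions in WT and 13.99% ± 6.25 in 3CBEsD, against 6.72% of positions and 10.0% weighted. Deleted libraries 1 to 3 held 12.7%, 20.8% and 8.51%, so that library 3 was below the weighted value. Over all rebuilt positions AGCT occurred 15.0 times per kb in Sγ2a, 14.8 in Sγ2b and 13.8 in Sγ3. Within Sγ2a the 1-kb bins from 114533001 down to 114527001 held 20, 32, 24, 15, 15, 5 and 8 copies. The same bins held 330, 1157, 1091, 686, 329, 73 and 19 junctions of the 6 libraries. The bins with the most copies were those with the most junctions, but bins with 15 copies differed in junctions, one of them held more than the bin with 20, and the bin with 8 held fewer than the bin with 5. No relation between copies and junctions was tested.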

How the data were processed

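CSR-HTGTS-seq libraries were amplified by the authors from a 5′Sμ primer, aligned with Bowtie2 (version not given in the sources used here) to the AJ851868/mm9 hybrid genome and filtered for duplicates. The lists the authors deposited hold 1 junction per row with coordinates, orientation, alignment limits and read sequence, and carry no normalization. Groups and replicate numbers came from the labels. Shares were junctions of Sγ2a over all junctions in the window, in both orientations. Joint structure was the last bait base minus the first prey base in the read plus 1, so microhomology bases were counted in the prey. Library values of the genotypes entered exact permutation tests, two-sided, and Sγ2a and other regions entered exact sign-flip tests within libraries (smallest p 0.03125 over 6 libraries), with Benjamini-Hochberg adjustment over 8 comparisons. Bins with at least 10 junctions over 6 libraries were tested. The bins and positions named were the 3 most used bins of each genotype, every bin whose libraries did not overlap, and the 5 positions with the most distinct joints. These choices, the region and its boundaries were made with earlier results of these data known. Wilson intervals (95%) and a floor of 3 junctions cover counting error only. Alternatives covered repeated and shared joints, prey length, boundaries 3 kb narrower, orientation, denominator, bin width, motif, the replicate block and leaving out each library. The bin call and the rebuilding of reference letters were tested on simulated data. The simulated libraries held many more junctions than the 71 to 102 of the deleted libraries. Bin calls at that depth, and false calls in unchanged bins, were not checked. Sequences were matched to mm9 with blastn 2.17.0. Scripts ran in Python 3.11.15 with pandas 2.3.3, numpy 2.4.6 and scipy 1.17.1, and matplotlib 3.10.9 drew the plots.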

Additional observations from a re-analysis of the deposited data

How the results depend on the processing

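The Sγ2a share, its ratios to Sγ2b and Sγ3, the median position and the interquartile width kept their direction and the separation of the genotypes under every alternative run. Leaving out 1 library at a time, the deleted share was 14.5 to 15.3% of the WT share, the ratio to Sγ2b 19.0 to 19.8%, the ratio to Sγ3 24.3 to 27.0%, and the upstream shift 240 to 329 bases. With the replicate block, in which same-numbered WT and deleted libraries were paired, the share ratio was 14.9%, 4 bins separated instead of 3, and no other call changed. The pairs' deviations over 46 bins had correlations of 0.235, 0.146 and 0.0990, so the numbers were not taken to pair the libraries. The higher share of insertions in deleted cells, 5.48 percentage points, became 5.35 with distinct joints, 4.95 without shared joints, 7.27 with preys of at least 100 bases, 3.62 with narrower boundaries and 4.86 with deletional junctions, each with overlapping libraries. The lower share of direct joints, -4.59 points, became -3.69 without shared joints, -2.86 with narrower boundaries and -3.59 with deletional junctions, also overlapping. The cause was not tested. Bins of 500 bases gave 8 non-overlapping bins, against 3 of 1 kb, and leaving out 1 library gave 3 to 6. Measures that overlapped separated when some libraries were left out, over ranges of 0.0805 to 4.70 points for the inversional share (without 3CBEsD library 3), -2.003 to 0.0194 points for microhomology (without WT library 2), -0.366 to 0.0383 bases for mean microhomology length (without 3CBEsD library 1), 1.0 to 3.0 bases for bait length (without WT library 3) and 0.226 to 1.10 for the AGCT ratio (without 3CBEsD library 1). Mean microhomology length also separated with preys of at least 100 bases, at -0.349 bases, and the AGCT ratio without shared joints, at 0.851. Against Sγ2b the direct share was -3.12 points with preys of at least 100 bases, and against Sγ3 the inversional share -3.02, neither in 6 of 6 libraries. Against Sγ2b the insertion share ranged from 1.41 to 3.19 points with 1 library left out. The 71 to 102 junctions in each deleted library limit every comparison of orientation and joint structure.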
